A study of Homo sapiens with 2 samples.

Results

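Loci assembled from the reads at places where the annotation used in the deposited tables holds no gene were described in 2 RNA-seq libraries of NCI-H2030, an established human lung adenocarcinoma cell line. A member was an assembled row of at least 1 TPM (transcript abundance scaled for length and for the total of the library) in its library whose span overlapped no annotated gene on either strand. Rows of the same strand label that overlapped between or within the libraries were merged, and chromosomes X and Y were left out. This gave 949 merged loci, built from 559 rows of the SC table and 643 rows of the AS table, out of 48896 assembled rows in both tables together. The loci were chosen by their measured TPM, so their levels are given as a description.

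One library came from cells treated with SC and the other from cells treated with miR-494-3p AS. The labels spell out neither abbreviation and state no dose, time or number of passages, and the same cell line served for both. Both are used here as group names. Total RNA was taken up in a library kit that keeps the strand of the transcript, and the labels name no step that removes ribosomal RNA. Each group is 1 library without replicates, and a difference below therefore compares these 2 libraries, with no error and no test.

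A gene catalogue covers the transcripts known when it was drawn up, and an assembler that joins aligned reads into transcripts also reports those that lie elsewhere. Active promoters of mammalian genes are often transcribed in both directions, the second transcript being short-lived and pointing away from the gene, and polymerase can also run past the end of a gene. Other transcripts of this kind come from long non-coding RNA genes not yet named, from repeats, and from sequences not placed on a chromosome in the assembly, one of which holds copies of the ribosomal DNA unit. Places are given on GRCh37, the build of the coordinates in the tables.

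The largest group of loci with a strand that lay near a gene was divergent, that is, on the opposite strand and pointing away from the start of the gene. Promoters are therefore shown for 4 divergent loci of high level, found in both libraries within 250 bp of a gene start. Their genes had a RefSeq start matching that of GENCODE 29. Not every chromosome entered this choice, so they need not be the 4 highest under these limits. Each promoter runs 5′ to 3′ on the strand of the gene, from 250 bases before to 50 bases after the RefSeq start, on GRCh38.p14. Capitals mark the GC box (GGGCGG, or CCGCCC on the other strand) and the CCAAT box (CCAAT, or ATTGG on the other strand). The SEC24C window is chr10:73744122-73744421 on the + strand, PCCA is chr13:100088843-100089142 on the + strand, TPPP is chr5:693303-693602 on the - strand and CEP68 is chr2:65056166-65056465 on the + strand.
SEC24C promoter: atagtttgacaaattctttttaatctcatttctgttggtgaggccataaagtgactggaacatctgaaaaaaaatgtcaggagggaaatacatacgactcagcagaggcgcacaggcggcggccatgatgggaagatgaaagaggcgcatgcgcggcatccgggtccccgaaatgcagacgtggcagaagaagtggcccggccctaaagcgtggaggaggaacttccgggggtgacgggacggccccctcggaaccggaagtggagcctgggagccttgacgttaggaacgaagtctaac
PCCA promoter: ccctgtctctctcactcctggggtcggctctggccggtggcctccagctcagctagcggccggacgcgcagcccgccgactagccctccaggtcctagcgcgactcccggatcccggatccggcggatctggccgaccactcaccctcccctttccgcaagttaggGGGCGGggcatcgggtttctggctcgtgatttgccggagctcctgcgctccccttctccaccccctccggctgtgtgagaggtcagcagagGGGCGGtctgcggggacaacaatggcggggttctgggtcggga
TPPP promoter: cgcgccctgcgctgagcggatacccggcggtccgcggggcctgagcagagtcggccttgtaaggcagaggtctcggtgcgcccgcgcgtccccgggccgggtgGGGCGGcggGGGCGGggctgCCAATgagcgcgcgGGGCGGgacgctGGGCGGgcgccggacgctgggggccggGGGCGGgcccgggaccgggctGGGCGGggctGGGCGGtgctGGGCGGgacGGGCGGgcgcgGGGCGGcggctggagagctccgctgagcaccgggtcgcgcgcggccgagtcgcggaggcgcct
CEP68 promoter: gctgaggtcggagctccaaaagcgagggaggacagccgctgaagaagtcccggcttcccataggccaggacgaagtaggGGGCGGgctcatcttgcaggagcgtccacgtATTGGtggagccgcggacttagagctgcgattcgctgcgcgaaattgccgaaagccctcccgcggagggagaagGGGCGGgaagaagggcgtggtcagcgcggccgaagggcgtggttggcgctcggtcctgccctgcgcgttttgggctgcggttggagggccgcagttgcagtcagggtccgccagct

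The SEC24C window held 0 GC boxes at a GC content of 54.3%. PCCA held 2 GC boxes and 26 CpG dinucleotides at 69% GC. TPPP held 10 GC boxes, 1 CCAAT box and 51 CpG dinucleotides at 83% GC, and CEP68 held 2 GC boxes and 1 CCAAT box at 66.3% GC. Of the 102 genes with a divergent locus within 250 bp of their start, 74 had a RefSeq promoter by symbol, and 52 of these had a start within 100 bp of the GENCODE 29 start. Over these 52 windows the median GC content was 69.5%, against 58.3% over all 27305 RefSeq promoters, and the median number of CpG dinucleotides was 30 against 14. A GC box was present in 82.7% of them and in 44.6% of all promoters. For the CCAAT box the shares were 30.8% and 35.7%, and for TATAAA (or TTTATA on the other strand) they were 3.85% and 12%. For genes with a locus downstream of them, 45 promoters were found by symbol alone, without the check of the start. They had a median GC content of 67.7% and a GC box in 66.7%. The promoters of both groups of genes, chosen by these unlike rules, were thus richer in GC than all RefSeq promoters. Promoters of transcribed genes without a locus beside them were not compared.

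The microRNA named in the AS treatment, miR-494-3p, lies at chr14:101029681-101029702 on GRCh38.p14 (+ strand). Its mature sequence in RefSeq is shown with the seed, bases 2 to 8, in capitals.
hsa-miR-494-3p: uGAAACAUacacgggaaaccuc

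No locus came within 100 kb of MIR494, the gene of this microRNA, or of SET, the phosphatase inhibitor named in the title of the series. SET stood at 30.4 TPM in SC and 79.1 in AS, and MIR494 was listed at 0 in both libraries. The sequences of the loci themselves were not analysed here, so that no site for the microRNA was searched in them.

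Of the assembled rows off X and Y, 871 of 23467 in SC (3.71%) and 949 of 23773 in AS (3.99%) lay outside all genes, and 559 and 643 of these reached 1 TPM. The 949 merged loci (a number equal to the AS rows by coincidence) split into 329 on the + strand, 346 on the - strand and 274 (28.9%) with no strand given. By contrast, 151 of 22596 gene-overlapping rows in SC (0.668%) and 151 of 22824 in AS (0.662%) had no strand. Chromosomes 1 to 22 carried 926 loci, sequences not placed on a chromosome carried 23, and the mitochondrial genome 0. Relative to the number of annotated genes, chromosome 20 carried the most, with 37 loci or 28.1 per 1000 annotated genes, followed by chromosome 22 with 27.7. Chromosome 18, with 9 loci, carried the fewest at 7.99 per 1000.

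A TPM of 1 was worth a mean read depth of 1.83 in SC and 1.67 in AS. The median depth computed from the TPM was 4.79 over the SC rows and 4.18 over the AS rows. Of the rows outside genes, including those below 1 TPM, 166 of 871 in SC and 160 of 949 in AS had a TPM worth a depth of 1 within 0.1%. A depth of 2 within 0.1% was found in 28 SC rows, at 1.09 TPM, and in 39 AS rows, at 1.20 TPM, which lies just inside the threshold. None of the rows at these whole depths lacked a strand. Read counts are not in the tables, so no counting interval can be given.

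The rows just inside and just outside the threshold were alike in level by construction. In SC the nearest inside were chr5:180615651-180617368 (- strand, 1.00 TPM), chr17:66193120-66194875 (+, 1.01) and chr4:187647966-187653475 (+, 1.02). A row at chr16:56634557-56635726 (+) is shown as 1.0000 and lay just below the threshold, ahead of chr2:235195657-235198524 (-, 0.9998) and chr2:134600229-134602151 (+, 0.9973). In AS the nearest inside were chr19:12792772-12793128 (+, 1.0014), chr4:72468789-72480086 (+, 1.0042) and chr7:54874186-54879693 (-, 1.0156). The nearest outside in AS were chr14:56171569-56188332 (+, 0.9962), chr10:38704471-38705861 (+, 0.9929) and chr1:79179020-79193626 (+, 0.9898).

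The loci were short next to genes, and the strand label went with their size. Their median span was 1701 bp, with quartiles of 771 and 5064 bp and a range from 200 to 264585 bp. Gene-overlapping assembled loci spanned 14468 bp at the median. Loci with a strand had a median of 2787 bp, and loci without one had a median of 742.5 bp and never exceeded 8513 bp. The lowest TPM outside genes was 0.545 in SC and 0.600 in AS among rows with a strand, but 2.60 and 2.87 among rows without one, and the lowest deposited coverage was 0.415 and 0.369 against 3.56 and 4.61. The program that made the tables thus listed no row without a strand at low level. Whether the missing strand marks rows with no splice site could not be read from the tables, which give no exons.

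**Figure D1:**
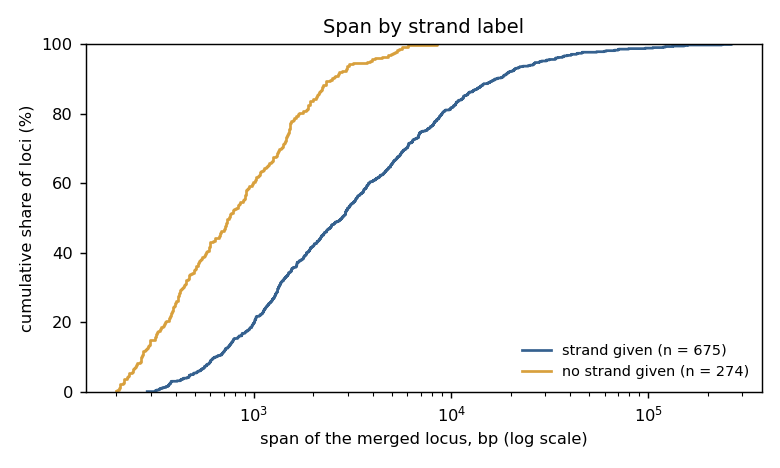
Cumulative share of merged loci (%) by span in bp (log scale), for the 675 loci with a strand and the 274 without. The curve of loci without a strand lies to the left, with a median of 742.5 bp against 2787 bp.

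The longest locus was chr9:28947815-29212399 (- strand, 264585 bp), found in AS only at 1.88 TPM. It lay 41674 bp from the processed pseudogene RP11-373A6.1. The second, chr8:115018099-115254164 (+, 236066 bp), had 1 row in SC, at 2.25 TPM, and 2 rows in AS, the higher at 0.911. The others were chr1:189118912-189277010 (158099 bp, AS only, 1.93 TPM), chr5:27571902-27723902 (152001 bp, 1.11 and 0.600 TPM), chr1:104812691-104946019 (133329 bp, SC only, 1.41 TPM) and chr1:98553004-98675065 (122062 bp, 1.66 and 0.600 TPM). The last ended 1238 bp before the lincRNA RP5-1070A16.1. All 6 were of low level, under 2.5 TPM in each library, and 3 of them were found in 1 library only. The AS value of 0.600 TPM in the chromosome 5 locus and in the last chromosome 1 locus was worth a coverage of 1. The AS row of the chromosome 5 locus spanned only 2686 bp (1.77% of the whole), so the long span was assembled in SC alone, and that of the last chromosome 1 locus spanned 44073 bp (36.1%).

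Few loci lay close to each other. Joining neighbours of the same strand label across gaps of up to 10 kb gave 916 groups, of which 885 held 1 locus, 29 held 2 and 2 held 3. One group of 3 lay on the + strand of chromosome 7 between 45837119 and 45853486. Its first member had 0.545 TPM in SC and 1.19 in AS, in rows that shared 1.24% of their joint span, and the others, at 1.48 and 2.50 TPM, were SC only. The other group of 3, without a strand, lay on chromosome 1 between 148352948 and 148358684 near the pseudogene PFN1P3. Its members had 2.75 and 13.5 TPM (SC and AS), 2.74 and 5.52 TPM, and 2.62 TPM in SC with no row in AS. The third group named, a pair out of the 29 tied at that size, lay without a strand near the pseudogene HS6ST1P1 on chromosome 1. It had 3.25 TPM in SC and 4.10 in AS in its first member, and 2.99 TPM in AS only in its second.

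By place, 187 loci (19.7%) were divergent and 87 (9.17%) lay downstream of a gene on its strand. A further 65 (6.85%) lay upstream on its strand, and 60 (6.32%) were convergent, on the opposite strand past the end of the gene. These classes reach to 5 kb from the gene. Another 193 loci (20.3%) within 5 kb of a gene had no strand, 334 (35.2%) had no gene within 5 kb and are called remote, and 23 (2.42%) lay on unplaced sequences.

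**Figure D2:**
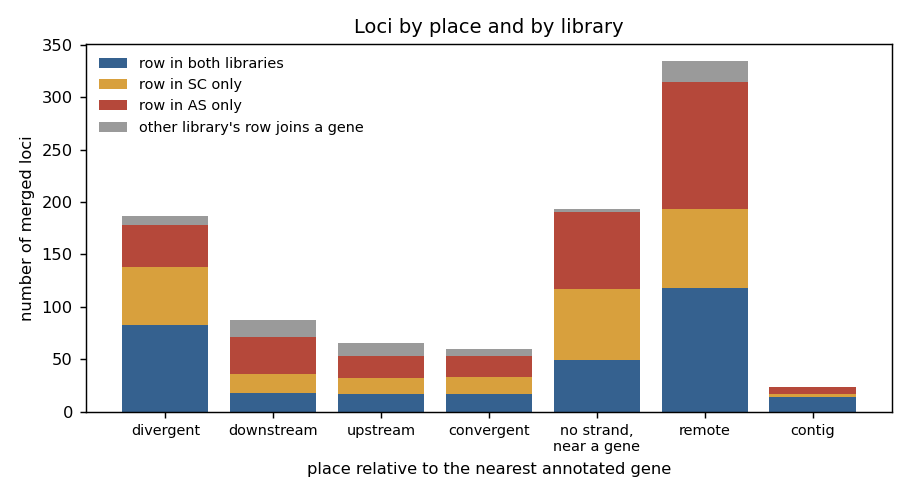
Number of merged loci by place relative to the nearest annotated gene, divided by the library in which a row was found. Divergent loci number 187, of which 83 had a row in both libraries, and remote loci number 334, of which 118 did.

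Divergent loci sat close to the gene start. Their median distance from the start of the gene was 212 bp, 102 of 187 were within 250 bp, 131 within 500 bp and 153 within 1000 bp. The gene was protein coding in 84.0% of them, against 67.8% for downstream loci, 51.7% for convergent, 40.0% for upstream and 38.3% for remote loci. The median level of the genes beside divergent loci was 12.2 TPM in SC and 16.6 in AS. For the genes nearest to remote loci it was 0.086 and 0.099 TPM, at a median distance of 14747.5 bp. Downstream loci began at a median of 1441 bp past the gene, with a median gene level of 5.20 TPM in SC and 6.73 in AS. The neighbours of divergent loci were therefore genes of higher level than those of the other classes.

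The highest divergent locus lay 117 bp from SEC24C, which encodes a cargo-binding coat protein of vesicles leaving the endoplasmic reticulum. The locus, chr10:75502732-75504003 on the - strand, had 33.9 TPM in SC and 19.6 in AS (log2 ratio -0.76), while SEC24C had 55.6 and 57.3 TPM. The level of the locus was thus lower in AS and that of the gene nearly equal. RefSeq lists 1 gene between the same neighbours, LOC124902453, with a length of 1302 bp against 1272 bp for the locus. Beside PPIA, the gene of cyclophilin A, chr7:44834654-44835994 (-, 285 bp from the start) had 21.4 and 15.1 TPM (log2 ratio -0.48), and the gene had 1540 and 1616 TPM. In the coverage column, put on the TPM scale, the log2 ratio of this locus was 0.09, so its direction depends on the column.

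Beside PCCA, which encodes a subunit of propionyl-CoA carboxylase, chr13:100737916-100741211 (-, 58 bp from the start) had 13.4 TPM in SC and 12.9 in AS. PCCA itself stood below the locus, at 3.27 and 6.39 TPM. RefSeq now lists a divergent transcript here, PCCA-DT, with a length of 2913 bp against 3296 bp. TPPP, which promotes tubulin assembly, had 1.42 and 1.64 TPM, and its divergent locus chr5:693612-694297 (+, 102 bp away) had 11.0 and 6.65 TPM. CEP68, a centrosomal protein gene, had 3.03 and 5.28 TPM, and its divergent locus chr2:65275027-65283276 (-, 224 bp away) had 4.82 and 6.81 TPM. In PCCA, TPPP and CEP68, which are among the promoters printed above, the locus stood above the gene in both libraries. At MMP23A, a pseudogene, the locus chr1:1630068-1631022 (-) had 15.1 and 13.2 TPM while the pseudogene had 0.189 TPM in SC and was listed at 0 in AS.

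RELA, which encodes the p65 subunit of NF-kappaB, had 79.2 TPM in SC and 90.7 in AS. The locus chr11:65430593-65439178 (+, 8586 bp), 28 bp from its start, had 15.7 TPM in SC and 7.39 in AS, a log2 ratio of -0.996, just short of a 2-fold difference. Its ratio in coverage was -0.73. RefSeq lists RELA-DT with a length of 8713 bp. Beside NENF, a secreted neurotrophic factor gene at 170 and 171 TPM, chr1:212603308-212606117 (-, 112 bp away) had 3.69 and 1.15 TPM (log2 ratio -1.12). Beside LINC00707, at 12.2 and 26.3 TPM, chr10:6814262-6821131 (-, 429 bp away) had 5.67 and 2.33 TPM (log2 ratio -1.002, and -0.77 in coverage), in rows of 6870 bp in SC and 2556 bp in AS. The lncRNA was higher in AS and its divergent locus was lower. Between the neighbours of this locus GENCODE 29 lists LINC00706 on its strand, and RefSeq lists LINC00706 and LINC02648. The NENF locus and the CNKSR3, PYGL, BICC1, PDE4B, GPC1, RXRA, POLA2, SMAD2, TPPP and CEP68 loci were singled out after their values were seen.

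In the opposite direction, the divergent locus of CNKSR3, a scaffold protein gene, at chr6:154831919-154843440 (+, 126 bp away), had 2.83 TPM in SC and 8.38 in AS (log2 ratio 1.29). CNKSR3 itself had 0.418 and 1.88 TPM, so the gene and the locus were both higher in AS. Beside PYGL, the liver glycogen phosphorylase gene, at 62.6 and 81.5 TPM, chr14:51411517-51413154 (+, 63 bp away) had 0.795 and 3.03 TPM (log2 ratio 1.17). These were the only 2 of 83 divergent loci in both libraries past 2-fold upwards in AS, and the NENF and LINC00707 loci were the 2 past 2-fold downwards.

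For 68 divergent loci found in both libraries the gene averaged at least 1 TPM over the libraries. The median log2 ratio of these loci was -0.05 and that of their genes 0.04, and the locus had the lower ratio in 40 of the 68 pairs. Spearman's rho between both ratios over these pairs was 0.14, a description across pairs measured in the same 2 libraries. At the median the level of a divergent locus was 12.3% of that of its gene in SC (113 pairs) and 7.48% in AS (102 pairs). For downstream loci the share was 14.3% in SC (32 pairs) and 8.22% in AS (48 pairs). The pairs differ between the libraries, so these shares do not compare SC with AS.

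Downstream loci lie on the strand of the gene and past its end, where readthrough would appear. The highest in both libraries was chr8:29518412-29527260 (-), 4178 bp past LINC00589, with 8.45 TPM in SC and 11.2 in AS, while LINC00589 was listed at 0 in both. Its rows, of 8712 bp in SC and 1885 bp in AS, shared 19.8% of their joint span. The second, chr11:72896488-72916394 (+), 3747 bp past the lincRNA RP11-800A3.3 (listed at 0), had 7.47 and 8.87 TPM (log2 ratio 0.22, and 1.55 in coverage). The third, chr11:67084994-67100413 (+), lay 4916 bp past SSH3, a cofilin phosphatase gene at 42.1 and 29.01 TPM, and had 8.32 and 7.15 TPM. Its log2 ratio was -0.19 in TPM and 1.92 in coverage, so its direction depends on the column. Among the 18 downstream loci in both libraries, 1 was at least 2-fold higher in AS. It lay 3091 bp past RXRA, the retinoid X receptor gene (15.8 and 17.1 TPM), at chr9:137335522-137337182 (+), with 0.545 and 2.17 TPM, the SC value being worth a depth of 1.

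Among upstream loci found in both libraries the highest was chr10:102488993-102491777 (+), 3583 bp before PAX2, a transcription factor gene of kidney and eye development. It had 8.04 TPM in SC and 11.9 in AS, whereas PAX2 had 1.05 and 0.334 TPM. Next was chr2:85153165-85196817 (+, 43653 bp), 1399 bp before KCMF1, a ubiquitin ligase gene at 10.6 and 26.3 TPM. It had 9.36 and 6.14 TPM, a log2 ratio of -0.54 in TPM and of 1.24 in coverage, and so no single direction. The third, chr16:89121030-89129406 (-), 1657 bp before the lincRNA CTD-2555A7.2 (listed at 0), had 2.52 and 6.60 TPM (log2 ratio 1.11), from rows that shared 23.1% of their joint span. Before SMAD2, a signal transducer of TGF-beta at 5.34 and 14.05 TPM, chr18:45458456-45484414 (-) had 3.85 and 0.964 TPM (log2 ratio -1.31). Its SC row spanned 25959 bp and its AS row 1516 bp, with 1.75% of their joint span in common, so the ratio compares mostly separate spans.

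Among convergent loci found in both libraries the highest was chr5:42975603-42994075 (-), 2409 bp from the processed pseudogene CTD-2201E18.1, which was listed at 0. It had 28.5 TPM in SC and 16.7 in AS (log2 ratio -0.74, but 0.25 in coverage), from rows that shared 35.5% of their joint span. It overlapped chr5:42992803-43000950 (+), with 7.02 and 3.91 TPM. Next among these came chr2:85715441-85715809 (+) near the pseudogene AC016753.7, with 5.36 and 6.80 TPM, and chr10:43838700-43857693 (-) near RNU6ATAC11P, with 4.88 and 3.35 TPM. Close to POLA2, the gene of a DNA polymerase alpha subunit (19.5 and 26.9 TPM), chr11:65073075-65081509 (-, 15 bp away) had 2.41 and 0.600 TPM (log2 ratio -1.09). It was the 1 convergent locus of 17 in both libraries past 2-fold, and its AS value was worth a depth of 1.

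Of the 949 loci, 316 (33.3%) had a row outside genes in both libraries, 316 in AS only and 250 in SC only. In the remaining 67 the row of the other library extended into an annotated gene. The share in 1 library only, without these 67, was thus 59.6%. Of the 17774 gene-overlapping loci, 17.7% lacked a gene-overlapping row in 1 of the 2 libraries, and 37.4% of those under 5 TPM. These 2 shares include loci whose other row lay outside genes, so the like measure is the share in both libraries. It was 33.3% for loci outside genes and 82.3% for gene-overlapping loci. Under 5 TPM it was 28.2% and 62.6%. A missing row is not a level of 0, since the assembler reports nothing below its own limits. Of the 566 loci in 1 library, 73 (12.9%) had a row of some kind over them in the other table, 34 of them a row outside genes with another strand label.

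**Figure D3:**
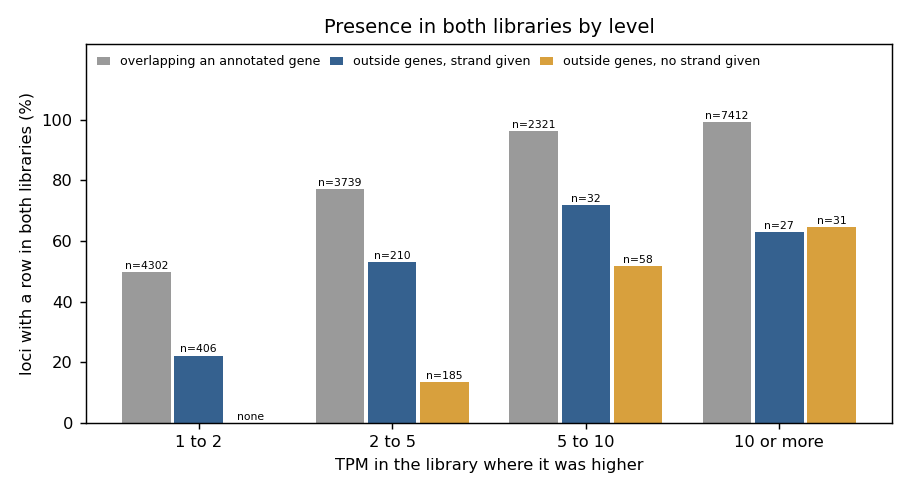
Share of loci (%) with a row in both libraries, by the TPM in the library where it was higher, for gene-overlapping loci and for loci outside genes with and without a strand; n is the number of loci in each bar. At 10 TPM or more 99.4% of gene-overlapping loci were in both, against 63.0% and 64.5% of loci outside genes with and without a strand.

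The share in both libraries went up with level but stayed below that of gene-overlapping loci of the same level. It was 22.2% (90 of 406) at 1 to 2 TPM, 34.4% (136 of 395) at 2 to 5, 58.9% (53 of 90) at 5 to 10 and 63.8% (37 of 58) at 10 TPM or more. For gene-overlapping loci it was 49.8%, 77.2%, 96.2% and 99.4%. At 2 to 5 TPM it was 52.9% for loci with a strand and 13.5% for those without, which lie near the lowest level the program listed for such rows. By place it ranged from 20.7% (18 of 87 downstream loci) to 44.4% (83 of 187 divergent loci) and 60.9% (14 of 23 on unplaced sequences).

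Several of the highest loci in 1 library were spans that the other library gave another strand. At chr13:109917438-109923466 the AS table had a - row of 367 TPM and a row without a strand of 206 TPM. At the same place the SC table had a + row, chr13:109917789-109923453, of 109 TPM, and its - row extended into an annotated gene. The span was thus occupied in both libraries, 10855 bp from LINC00370, and the strand labels differed. Between the same neighbours GENCODE 29 lists AL161431.1, and RefSeq lists LINC03061 and LOC130494219. At chr8:115041783-115042079 a row without a strand of 66.9 TPM, SC only, lay within the + locus of 236066 bp described above. At chr14:105281829-105283238 a row without a strand of 15.3 TPM in SC overlapped a + row of 2.20 TPM in AS, chr14:105282457-105284914. At chr12:113828002-113829416 (-, 59.5 TPM, AS only), 799 bp past PLBD2, a lysosomal phospholipase-like gene, the SC table had a row overlapping an annotated gene on another strand label. At chr9:97305761-97305999 (no strand, 42.6 TPM in AS, 11352 bp from PCAT7) the SC table had no row at all.

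Where each library gave 1 row, the rows often matched but not always. Over 300 such loci the shared part was 87.6% of the joint span of both rows at the median. It was at least 90% in 137 loci (45.7%), under 50% in 72 and under 10% in 18, and 68 of the 72 and all 18 had a strand. For loci with a strand the 5′ ends differed by 89.5 bp and the 3′ ends by 138.5 bp at the median (226 loci). For divergent loci the medians were 64 bp and 68.5 bp, and 13 of 80 shared under 50%. A ratio between rows that share little compares different spans, and such loci are marked where they are named. Loci merged from 2 or more rows of 1 library have no such measure.

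Summed over its member rows the SC library held 4355 TPM (0.435% of the TPM of all its assembled rows) and the AS library 5163 TPM (0.516%). A single unplaced sequence, GL000220.1, made up 1893 TPM (43.5% of the members' sum) in SC and 1721 TPM (33.3%) in AS. Without the unplaced sequences the sums were 2389 and 3318 TPM. The median member row had 2.61 TPM in SC and 2.51 in AS. Loci of 10 TPM or more numbered 32 rows in SC and 46 in AS.

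GL000220.1, which is known to hold copies of the ribosomal DNA unit, had the highest loci of all. Positions 113355 to 118412 (no strand, 5058 bp) had 835 TPM in SC and 798 in AS, and positions 157328 to 161800 (no strand, 4473 bp) had 737 and 693 TPM. Their starts were 43973 bp apart. A + locus from 97095 to 130856, which covers the first of them, had 317 and 226 TPM. The log2 ratios were -0.07, -0.09 and -0.48. Reads of near-identical copies may be shared among these positions, so each value is uncertain. GL000241.1 had a - locus at 22731 to 36859 with 32.0 and 39.3 TPM, a log2 ratio of 0.29 in TPM and of -0.78 in coverage.

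**Figure D4:**
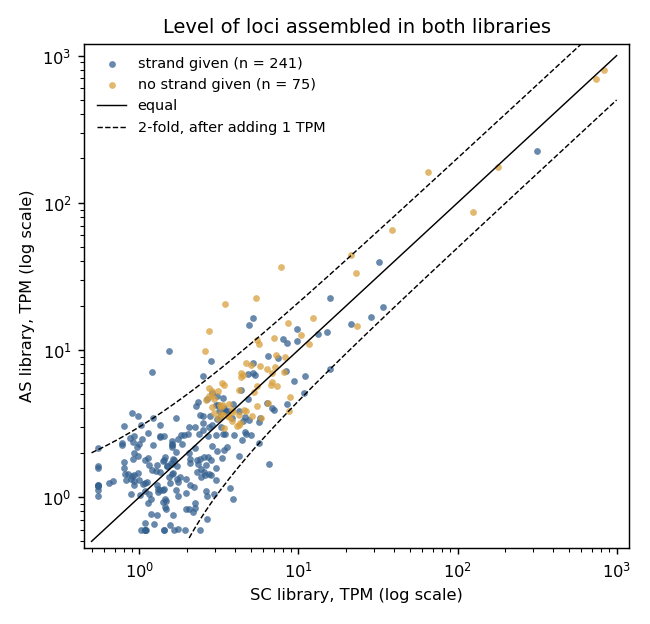
TPM in the AS library against TPM in the SC library (log scales) for the 316 loci with a row in both, with lines for equal level and for a 2-fold difference after adding 1 TPM to each. The points at the top right are the ribosomal DNA loci at 835 and 798 TPM and at 737 and 693 TPM, and most others lie below 10 TPM.

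Among loci on chromosomes found in both libraries, short loci without a strand were the highest. At chr13:110076471-110076690 (220 bp, 22483 bp from LINC00399) the level was 179 TPM in SC and 176 in AS. At chr21:9826670-9827581 (912 bp), 407 bp from the microRNA gene MIR3687 at 11.96 and 11.6 TPM, it was 125.1 and 86.0 TPM. At chr16:35036717-35037097 (381 bp), 143 bp from HMGN2P41, a processed pseudogene of a nucleosome-binding protein listed at 0, it was 64.9 TPM in SC and 162 in AS (log2 ratio 1.31). A second locus beside a pseudogene of the same parent, HMGN2P6, at chr14:25735514-25735846 (333 bp, 424 bp away), had 38.7 and 64.9 TPM (log2 ratio 0.73). At chr21:46398736-46399168, 1832 bp from FAM207A (133 and 119 TPM), it was 23.01 and 33.4 TPM. At chr4:136088642-136088922 (281 bp) it was 21.3 and 44.4 TPM (log2 ratio 1.03). Between the neighbours of the last, GENCODE 29 lists a gene named RF00026, the name of the U6 small nuclear RNA family.

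The ratio was defined as log2((AS + 1)/(SC + 1)) of the TPM, which understates differences of low loci. Over the 316 loci in both libraries its median was 0.08, with quartiles of -0.35 and 0.42, and it was above 0 in 171 (54.1%). At least 2-fold higher in AS were 19 loci (6.01%), and at least 2-fold lower were 7 (2.22%). Of the 14628 gene-overlapping loci in both libraries 12.6% passed 2-fold upwards in AS and 1.61% passed it downwards, and their median was 0.28. Restricted to loci under 5 TPM, 6 of 226 loci outside genes (2.65%) were higher and 4 (1.77%) lower, against 9.34% and 1.67% of 5032 gene-overlapping loci. The higher share outside genes was thus below the background and the lower share near it. Among the 228 loci whose rows shared at least 50% of their joint span, 12 passed 2-fold upwards and 5 downwards, with a median of 0.08.

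All annotated genes of at least 1 TPM had a median log2 ratio of 0.28 (13743 genes). Relative to that shift, 12 loci passed 2-fold upwards and 26 downwards, so the split between directions turns with the centring. The shares of gene-overlapping loci given above are not centred, so these counts have no like background. By column, the sign of the ratio was the same in TPM and in coverage for 287 of 316 loci. Coverage also gave 19 loci higher and 7 lower, of which 16 and 4 were past 2-fold in both columns. All 29 loci of differing sign had a strand, and in all 75 loci without one both columns had the same sign. The median was 0.06 for loci with a strand and 0.20 for those without.

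**Figure D5:**
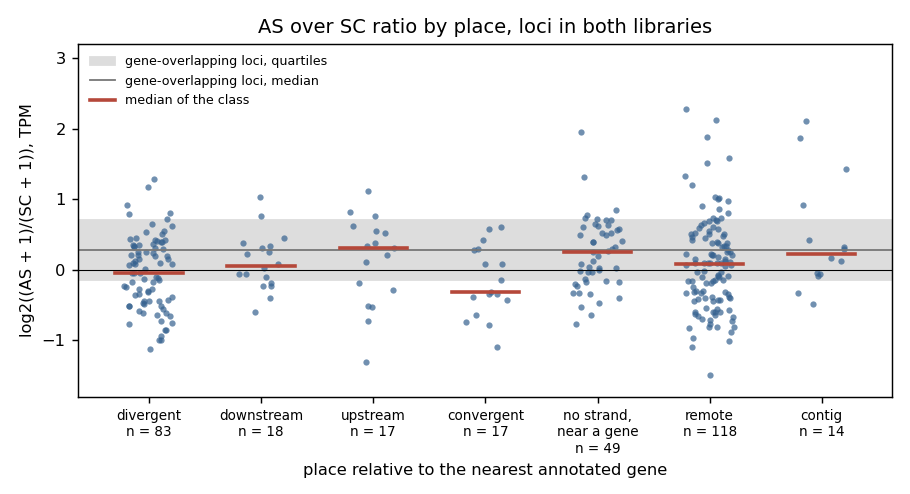
log2((AS + 1)/(SC + 1)) of each locus found in both libraries, by place, with the median of each class and, as a band and a line, the quartiles and the median of gene-overlapping loci. The class medians run from -0.32 for 17 convergent loci to 0.31 for 17 upstream loci, on either side of 0, and the gene-overlapping median is 0.28.

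By place, the median ratio was -0.05 for divergent loci (83), 0.05 for downstream (18), 0.31 for upstream (17), -0.32 for convergent (17), 0.25 for loci without a strand near a gene (49), 0.08 for remote (118) and 0.22 for unplaced (14). The quartiles of the divergent loci were -0.44 and 0.34, and those of the remote loci -0.40 and 0.47. These ranges overlap each other and those of gene-overlapping loci, -0.14 and 0.70.

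The largest ratio among loci of at least 5 TPM in a library belonged to chr2:64304321-64304565 (no strand, 245 bp), 8919 bp from the lincRNA AC012368.1. It had 3.46 TPM in SC and 20.6 in AS (log2 ratio 2.27). Next were chr18:26273844-26274221 (no strand, 378 bp) with 7.72 and 36.8 TPM (2.12), and GL000191.1 29149 to 33266 (+) with 1.53 and 9.88 TPM (2.11). The rows of the last shared 33.2% of their joint span. The first member of the chromosome 1 group near PFN1P3 had a log2 ratio of 1.95, its rows sharing 48.9%. At chr16:4357108-4358227 (no strand), 6535 bp from GLIS2, a zinc finger transcription factor gene at 12.1 and 13.6 TPM, the level was 5.41 and 22.6 TPM (1.88), with 38.1% shared. Each of these 5 loci had a ratio within 0.01 of its TPM value in coverage. The sixth, GL000205.1 33935 to 68756 (+), had 1.20 and 7.04 TPM (1.87) but a ratio of -0.14 in coverage.

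Of the 19 loci at least 2-fold higher in AS, 10 were remote, 3 unplaced, 2 divergent, 2 without a strand near a gene, 1 downstream and 1 upstream. For some of the remote loci the nearest gene was also higher in AS. At chr10:60232742-60263204 (+), 9696 bp from BICC1, an RNA-binding protein gene at 7.49 and 20.8 TPM, the level was 1.03 and 3.10 TPM. At chr1:66902283-66905221 (+), 62024 bp from PDE4B, a cyclic AMP phosphodiesterase gene at 0.021 and 4.52 TPM, it was 0.892 and 3.74 TPM. For others the gene was lower, as at chr2:241317808-241327152 (-), 47936 bp from GPC1, a cell-surface proteoglycan gene at 103 and 69.6 TPM, where the locus had 0.983 and 3.56 TPM. The nearest gene thus gave no single direction.

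The smallest ratio among loci of at least 5 TPM in a library belonged to chr2:232277288-232279175 (+), 11413 bp from B3GNT7, a glycosyltransferase gene at 0.262 and 0.075 TPM. It had 6.55 TPM in SC and 1.68 in AS (log2 ratio -1.49). Next within that limit came chr12:25538676-25539139 (no strand) with 8.74 and 3.82 TPM (-1.01), followed by the LINC00707 and RELA loci. Last were chr14:77363035-77371655 (-), 6079 bp from RN7SKP17, with 10.9 and 5.10 TPM (-0.96, and -0.15 in coverage), and chr12:66397133-66397511 (+) with 8.41 and 4.29 TPM (-0.83). All 6 were lower in AS in both columns.

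For some loci later catalogues list a gene between the neighbours of the locus. Neighbours, the nearest genes on each side that the later catalogue also lists, could be found in GENCODE 29 for 894 loci. In 97 of these (10.9%) it lists a gene between them that the tables lack, on the strand of the locus where it has one. Annotated genes that the catalogue lacks may lie between such neighbours, so their span can exceed the gap around the locus. Among loci with a strand, a later gene of the same strand was listed for 28 of 222 found in both libraries (12.6%) and for 28 of 412 others (6.8%). Of the gaps between annotated genes that held a locus 13.7% held a later gene (109 of 797), against 6.85% of the other gaps (2039 of 29771). Gaps with a locus were longer, 26004 bp against 12630 bp at the median. Among gaps of 20000 to 50000 bp the shares were 13.8% and 7.36%, and among those of 50000 to 100000 bp 17.5% and 10.5%. RefSeq, counted on either strand, listed a later gene between such neighbours for 523 of 829 loci (63.1%). This share is therefore not like that of GENCODE 29. A gene annotated under a name that was not matched would also count as later. Counted by gap, RefSeq did so for 61.6% of gaps with a locus (459 of 745) and 47.7% of the others (13016 of 27286). For gaps of 20000 to 50000 bp the shares were 65.5% and 55.5%.

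For 77 loci in both libraries RefSeq listed exactly 1 later gene between such neighbours, on either strand. In 36 of them the length of the gene was within 2-fold of that of the locus. The share for unrelated pairs was not computed. Close lengths included, besides the SEC24C locus, chr1:150602257-150608256 (6000 bp, LOC112268239 at 5908 bp) and chr16:89314197-89315777 (1581 bp, LOC124903766 at 1566 bp). Another was chr1:154644155-154652307 (8153 bp, LOC124904428 at 8244 bp). These loci were chosen here for their likeness. Coordinates were not compared, since the builds differ. RefSeq names a divergent transcript (a symbol ending in DT) for 5 of 149 protein coding genes beside a divergent locus (3.36%) and for 594 of all 20056 (2.96%). Besides PCCA and RELA they were FGGY, ZNF426 and FAM86B2. The FGGY locus had 2.45 TPM in SC and 1.54 in AS, the ZNF426 locus had 2.69 and 1.88 TPM, and the FAM86B2 locus had 5.13 TPM in AS.

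The markers of the cell line were checked in the same tables. The keratins KRT7, KRT8 and KRT18 were the highest of the 7 epithelial markers, which summed to 1113 TPM in SC and 883 in AS, with 4 and 5 of them at 1 TPM or more. KRT19 was listed at 0 in both, CDH1 had 0.0074 and 0.014 TPM, and NKX2-1, the lung lineage factor, had 0.032 TPM in each, with 1 of 5 lung markers (NAPSA) at 1 TPM or more. The 6 fibroblast markers summed to 32.3 and 25.4 TPM, 3 of them at 1 TPM or more. Of the 5 blood markers CD68 alone, at 285 and 203 TPM, was above 1 TPM, PTPRC was listed at 0, and none of the 3 endothelial markers reached 1 TPM. Their part in the differences between the loci was not tested.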

How the data were processed

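Both libraries of NCI-H2030 came as 1 deposited table each, listing annotated genes and loci assembled from the reads. Per the file headers the authors gave the coverage, FPKM and TPM of every row. The TPM signal of annotated and assembled rows was deposited on 1 scale. No aligner or assembler is named in the sources used here. The submitters' processing notes name GRCh38 and hg38, but the coordinates are those of GRCh37: 365 of 52353 gene identifiers (0.697%) had the same start in GENCODE 29. Gene types, later genes and promoters from GENCODE 29 and RefSeq (GRCh38.p14) were matched by identifier, symbol or gene order. Median coverage per unit of FPKM, a measure of depth, was 3.62 in SC and 3.54 in AS, and TPM per FPKM 1.98 and 2.13.

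The level of a merged locus in a library was the highest TPM of any row outside genes that overlapped it with the same strand label, of any TPM. A locus without such a row had no ratio. The pseudocount was 1 TPM. The nearest gene edge set the place. The nearest 3 rows on each side of the threshold were named, as were the 10 loci of highest mean, the 6 longest, the 6 largest and 6 smallest ratios (5 TPM or more in a library), the 3 highest in each class or in 1 library, and the 3 largest groups of neighbours. Members, lists and rules were chosen with earlier results of these data known. Alternatives were another TPM minimum, distance, merging, pseudocount, column and centring. The steps were tested on simulated tables with known loci, with Python 3.11.15, pandas 2.3.3, numpy 2.4.6 and matplotlib 3.10.9.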

Additional observations from a re-analysis of the deposited data

How the results depend on the processing

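There was 1 library per group, so no library could be left out. No paired analysis was possible because each group held 1 library. The number of merged loci, 949, was 1465, 543 and 148 at a TPM minimum of 0.5, 2 and 5, and 609 and 365 with no gene allowed within 1 kb and 5 kb. With a distance limit of 1 kb there were 22 convergent, 37 downstream, 566 remote and 28 upstream loci, and 120 near a gene without a strand. The median log2 ratio of 0.08 became 0.25 at a minimum of 5 TPM. The counts of loci at least 2-fold higher and lower in AS, 19 and 7, were 37 and 26 with a pseudocount of 0.1 TPM, 8 and 0 with 5 TPM, 11 and 3 in the FPKM column, and 12 and 26 when centred on annotated genes. Among loci of at least 1 TPM in both libraries, an alternative added after the data were seen, 15 were higher and 4 lower. With rows that share at least 50% of their joint span, added likewise, 12 were higher and 5 lower. Of the named loci with a ratio, 34 of 40 kept their sign in the coverage column, and GL000205.1 33935 to 68756 went from 1.87 to -0.14. The causes were not tested. Low depth limits the loci below 5 TPM most, where a missing row cannot be told apart from a low level.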
